A study of Mus musculus with 24 samples.

Results

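The comparison described here is the dependence of the response to lysophosphatidic acid (LPA) on the receptor GPR35 in mouse bone marrow-derived macrophages. Its members are the 16 LPA-treated and untreated libraries of the 24 in the series, chosen by their labels, with 4 replicates in each of 4 groups. Across all 11590 genes of the deposited count table, the LPA effect in GPR35-deficient cells (KO) minus the LPA effect in wild-type cells (WT) was tested, and each gene was then sorted by which effects were called. The groups were KO with LPA, KO untreated (Cont), WT with LPA and WT untreated. All cells came from male C57BL/6 mice. They were differentiated from bone marrow with the growth factor M-CSF for 7 days, and the treated ones then received 10 µM LPA for 4 h. The other 8 libraries, KO and WT cells with 10 ng/mL lipopolysaccharide (LPS), entered the same model and are quoted only beside the LPA values. The labels give neither the age of the mice nor how the Gpr35 deficiency was made. They do not say that the 4 replicates came from separate mice either, so that p-values measure the spread between these cultures.

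LPA is a small signalling lipid released at sites of inflammation and tissue damage, and it acts on a family of G protein-coupled receptors, the LPA receptors. GPR35 is a G protein-coupled receptor of gut and immune cells for which several small molecules, LPA among them, have been proposed as ligands. Macrophages answer many danger signals through NF-kB, a transcription factor that switches on cytokine and chemokine genes, and through interferon-driven genes. If an LPA effect needs GPR35, it should be present in WT and missing in KO cells, which is the contrast tested.

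Promoters of 6 genes are shown as examples of the 2 behaviours that the results turn on: an LPA rise in WT that was lost in KO (Acod1, Cxcl2, Tnf) and an LPA rise present in both genotypes (B3gnt5, Chst3, Cgnl1). Each runs 5′ to 3′ from 250 bases before to 50 bases after the RefSeq start of the gene in GRCm38.p6. Capitals mark matches, on either strand, to an NF-kB type site (GGGA and TTCC with 2 free bases between), an AP-1 type site (TGA and TCA with 1 free base between) or a TATA box (TATAAA). Acod1 is read from the plus strand of chr14:103046762-103047061, Cxcl2 from the plus strand of chr5:90903649-90903948 and Tnf from the minus strand of chr17:35201958-35202257. B3gnt5 is read from the plus strand of chr16:19759984-19760283, Chst3 from the minus strand of chr10:60219211-60219510 and Cgnl1 from the minus strand of chr9:71771553-71771852.
Acod1: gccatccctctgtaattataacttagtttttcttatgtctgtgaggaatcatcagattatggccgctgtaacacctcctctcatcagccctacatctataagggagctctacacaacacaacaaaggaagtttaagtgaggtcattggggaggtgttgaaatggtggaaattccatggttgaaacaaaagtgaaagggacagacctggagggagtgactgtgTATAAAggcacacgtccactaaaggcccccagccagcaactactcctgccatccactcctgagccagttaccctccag
Cxcl2: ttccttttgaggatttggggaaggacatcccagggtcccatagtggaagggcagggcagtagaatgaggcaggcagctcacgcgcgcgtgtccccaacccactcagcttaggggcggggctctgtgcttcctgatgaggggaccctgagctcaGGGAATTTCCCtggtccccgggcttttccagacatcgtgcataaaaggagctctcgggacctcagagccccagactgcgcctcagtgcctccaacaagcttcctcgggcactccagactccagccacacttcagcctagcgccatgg
Tnf: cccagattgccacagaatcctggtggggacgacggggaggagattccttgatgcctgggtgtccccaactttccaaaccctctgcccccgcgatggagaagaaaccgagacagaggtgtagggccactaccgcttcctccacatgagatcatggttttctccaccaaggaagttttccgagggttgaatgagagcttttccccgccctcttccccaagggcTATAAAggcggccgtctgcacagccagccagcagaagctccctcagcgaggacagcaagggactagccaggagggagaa
B3gnt5: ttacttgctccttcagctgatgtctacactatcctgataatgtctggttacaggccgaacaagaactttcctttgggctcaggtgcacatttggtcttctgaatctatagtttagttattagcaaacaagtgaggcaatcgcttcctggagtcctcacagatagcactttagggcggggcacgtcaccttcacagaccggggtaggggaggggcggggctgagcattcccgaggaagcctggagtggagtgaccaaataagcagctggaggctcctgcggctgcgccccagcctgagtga
Chst3: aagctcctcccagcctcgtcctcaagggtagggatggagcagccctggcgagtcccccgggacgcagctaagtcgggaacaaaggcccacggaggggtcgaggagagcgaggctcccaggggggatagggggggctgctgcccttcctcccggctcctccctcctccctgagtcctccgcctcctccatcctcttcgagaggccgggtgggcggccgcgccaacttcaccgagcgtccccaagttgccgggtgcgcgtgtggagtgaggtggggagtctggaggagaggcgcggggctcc
Cgnl1: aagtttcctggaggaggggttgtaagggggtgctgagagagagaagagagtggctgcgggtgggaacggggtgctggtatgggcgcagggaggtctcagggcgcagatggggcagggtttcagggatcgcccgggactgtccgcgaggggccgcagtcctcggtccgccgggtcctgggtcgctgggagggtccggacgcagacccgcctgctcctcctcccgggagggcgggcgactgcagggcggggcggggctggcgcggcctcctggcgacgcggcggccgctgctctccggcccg
In the Cxcl2 promoter the NF-kB type match lay 97 bases before the start and overlapped a second match on the other strand, 96 bases before it. The TATAAA of Acod1 lay 28 bases before its start, and that of Tnf 29 bases before. The promoters of B3gnt5, Chst3 and Cgnl1 held none of these motifs, which says nothing of their class. Among all 27025 promoters of the table, 1.43% held the NF-kB type site, 7.93% the AP-1 type site and 14.2% the TATA box. Among the 9210 tested genes with a listed promoter the shares were 1.59%, 4.86% and 6.82%. These are fewer than 80% of the 11590 genes tested, and motif shares are not compared between the classes.

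The targeted gene matched the labels. Gpr35 (chromosome 1, 92948052 to 92986391, GRCm38.p6) had 4, 0, 3 and 2 counts in the KO LPA libraries and 4, 1, 2 and 5 counts in the KO Cont libraries. In WT it had 122, 64, 91 and 54 counts with LPA and 107, 133, 112 and 111 counts untreated. The KO groups overlapped each other and lay below every WT library, at 5.47% of the WT level with LPA and 5.33% untreated. The LPA effect on Gpr35 itself did not differ detectably between the genotypes at this depth (KO minus WT log2 0.06 ± 0.88, edgeR adjusted p = 0.97). Total counts per library ran between 15.6 and 21.5 M in KO and between 32.0 and 46.7 M in WT. WT libraries were sequenced on 2 lanes and KO libraries on 1, per the labels, so lanes and depth cannot be told apart from genotype. Untreated KO and WT cells differed in 1 of 11590 genes (0.00863%), which was Gpr35.

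The LPA effect differed between KO and WT in 3301 of 11590 genes (28.5%) by edgeR's quasi-likelihood test at a Benjamini-Hochberg adjusted p below 0.05. The effect was lower in KO in 1828 of them (15.8%) and higher in 1473 (12.7%), and 409 (3.53%) differed by at least 2-fold. With libraries scaled by their totals alone the split was 1325 lower and 1981 higher, and the median difference over all genes stood at 0.08 in log2, against 0.01 with the TMM scaling used throughout. Within each genotype, LPA changed 304 genes in KO (2.62%; 181 up, 123 down) and 5165 genes in WT (44.6%; 2723 up, 2442 down). Effects of at least 2-fold were called for 26 genes in KO (0.224%) and for 324 in WT (2.8%). The effects themselves were smaller in KO, with an SD over genes of 0.212 in log2 against 0.401 in WT. Their median standard errors were close, at 0.0889 in KO and 0.0850 in WT. Over all 11590 genes, 2882 had the larger absolute effect in KO. Over all 11590 genes the KO effect and the WT effect, which share no library, had a Pearson r of -0.0095 and a Spearman rank correlation of -0.093, as a description across genes that are not independent.

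Sorting the genes by these calls gave one large class and several small ones. A lost effect was called in WT and in the difference, toward the opposite sign, and was not called in KO. There were 2873 such genes, 24.8% of all genes and 55.6% of those called in WT, made up of 1616 WT rises (13.9%) and 1257 WT falls (10.8%). A reversed effect was called in both genotypes with opposite signs and in the difference, which held for 49 genes (0.423%). An effect retained in KO was called in both with the same sign. In 88 genes (0.759%) no difference was called, in 16 (0.138%) the KO effect was smaller and in 6 (0.0518%) it was larger. A KO-only effect, called in KO and in the difference and not in WT, was found for 108 genes (0.932%). A further 2133 genes (18.4%) were called in WT without a called difference, 37 (0.319%) in KO without one, 249 (2.15%) in the difference alone, and 6031 (52%) in none of the 3. Since these classes rest on the same calls, their own effect sizes are given as descriptions.

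**Figure D1:**
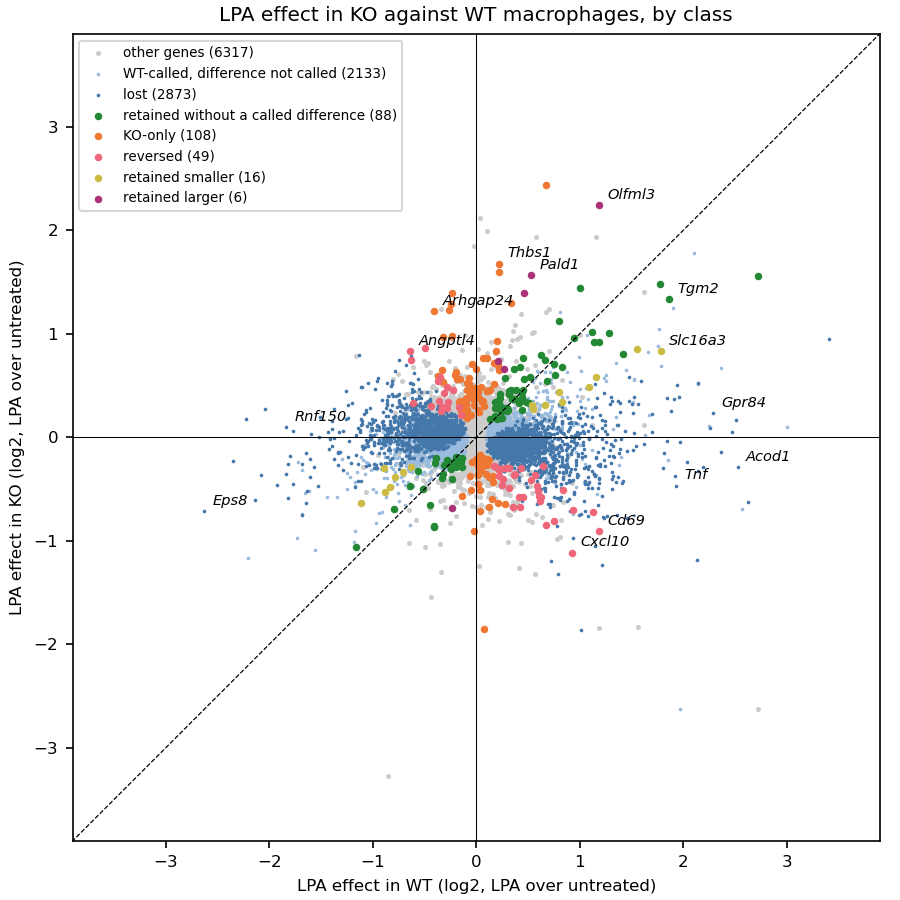
LPA effect in KO (vertical axis) against LPA effect in WT (horizontal axis), both log2 of LPA over untreated, for 11590 genes (points) coloured by class, with the number of genes of each class in the legend and equality of the effects as a dashed line. The 2873 genes with a lost effect spread along the horizontal axis near a KO effect of 0, and the 88 retained genes lie near the dashed line.

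The lost class was near no change in KO, and its KO effects leaned slightly against the WT direction. Its median absolute effect was 0.09 in log2 in KO and 0.42 in WT. Signed along the WT direction, the KO median was -0.07, and 646 of the 2873 genes kept the WT sign in KO. A missing call does not show a missing effect, so the intervals were read as well. In 2487 genes (86.6%) the 95% interval of the KO effect lay below 50% of the WT effect, and in the other lost genes an effect of that size was not excluded. This share follows in part from the class rule, which needs a called difference, and is no separate test. Among the 2133 genes called in WT without a called difference, the interval lay below 50% in 128 (6%). LPA effects of at least 2-fold in WT were lost in 237 genes.

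Among LPA rises that KO cells lost in genes averaging at least 2 CPM, Acod1 differed most. It encodes the mitochondrial enzyme that makes itaconate, a metabolite of activated macrophages (chromosome 14, 103047012 to 103056573, GRCm38.p6). Acod1 stood at 95.8, 82.1, 73.2 and 95.5 CPM (counts per 1000000, TMM-scaled, in the order of replicates 1 to 4) with LPA and at 77.8, 116, 109 and 120.0 CPM untreated in KO. In WT it stood at 821, 943, 336 and 567 CPM with LPA and at 129, 128, 97.7 and 108 CPM untreated. The WT groups were far apart, with replicate 3 the lowest of the treated cultures, while the KO groups overlapped. The LPA effect was -0.28 ± 0.21 in KO and 2.53 ± 0.22 in WT (log2 ± SE). The difference was -2.81 ± 0.31 (95% interval -3.45 to -2.17, edgeR adjusted p = 7.0e-06).

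Tnf (chromosome 17, 35199367 to 35202007, GRCm38.p6), encodes a cytokine of acute inflammation and behaved alike. Tnf had 28.1, 34.9, 25.2 and 29.3 CPM with LPA and 26, 49.1, 44.8 and 42.4 CPM untreated in KO. WT cultures had 195, 204, 78.5 and 149.6 CPM with LPA and 43.1, 47.6, 34.9 and 39.5 CPM untreated. Every treated WT culture was above every other library, and in KO 3 of the 4 untreated cultures lay above the treated ones while replicate 1 did not. The difference between genotypes was -2.39 ± 0.32 (edgeR adjusted p = 5.1e-05), from effects of -0.47 ± 0.23 in KO and 1.93 ± 0.23 in WT.

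Cxcl2, which encodes a chemokine that attracts neutrophils (chromosome 5, 90903899 to 90905938, GRCm38.p6), had 10.5, 22.7, 14.8 and 12.3 CPM with LPA and 11.6, 25.8, 20.1 and 16 CPM untreated in KO. The WT levels were 103, 106, 30.6 and 63.7 CPM with LPA and 15.6, 17.7, 15.8 and 17.5 CPM untreated. Replicate 2 was the highest KO culture in both treatments, and the pair moved little. The difference was -2.48 ± 0.47 (edgeR adjusted p = 1.0e-03). Cxcl1, a related chemokine gene on the same chromosome, differed by -2.10 ± 0.65 (adjusted p = 0.021), and by -1.81 without KO Cont replicate 2, where the call was lost (adjusted p = 0.067).

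Of the other lost rises that were named, 4 were receptor genes of myeloid cells. Fpr2, a receptor for formyl peptides and other danger ligands, had 10.5, 4.86, 8.37 and 10.5 CPM with LPA and 10.6, 7.35, 10.4 and 15.9 CPM untreated in KO, against 36.3, 51.4, 37 and 56 CPM with LPA and 12.5, 12.6, 11.7 and 10.9 CPM untreated in WT. Its difference was -2.30 ± 0.28 (edgeR adjusted p = 2.1e-05). Fpr1, the neighbouring formyl peptide receptor gene, changed by -0.24 ± 0.29 in KO and 2.04 ± 0.20 in WT. Gpr84, which binds fatty acids of medium chain length, averaged 17.8 ± 4.24 CPM with LPA and 15.1 ± 2.83 CPM untreated in KO. In WT it averaged 75.7 ± 22.3 CPM with LPA and 15.5 ± 1.4 CPM untreated (SD, n = 4 in each group). The Gpr84 groups did not overlap in WT and overlapped in KO, with a difference of -2.06 ± 0.27. Tarm1, an activating receptor of myeloid cells, was a low transcript with effects of 0.17 ± 0.41 in KO and 2.51 ± 0.27 in WT. Each of these 4 receptor genes had a called difference (edgeR adjusted p between 2.1e-05 for Fpr2 and 0.0024 for Tarm1).

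Falls with LPA were lost as well. Rnf150, which encodes a RING finger protein, had 162, 161, 144 and 153 CPM with LPA and 167, 132, 145 and 136 CPM untreated in KO. In WT it had 27.4, 21, 64 and 33.5 CPM with LPA and 118, 128, 144 and 129.5 CPM untreated. All treated WT cultures were below all others, replicate 3 least so, and the KO groups overlapped. The difference was 1.93 ± 0.29 (edgeR adjusted p = 1.6e-04). Slco2b1, an organic anion transporter gene, had 58.1, 53.8, 39 and 52.7 CPM with LPA and 61.8, 43.7, 37.5 and 52.2 CPM untreated in KO. WT cultures had 12.6, 11.5, 19.3 and 15.8 CPM with LPA and 45.5, 54.6, 51.1 and 50.8 CPM untreated. The KO effect was 0.06 ± 0.15 and the WT effect -1.77 ± 0.16, and the fall was called in WT and not in KO (difference 1.83 ± 0.22, adjusted p = 1.5e-05). Abcd2, a transporter of fatty acyl groups into peroxisomes, changed by 0.20 ± 0.22 in KO and -1.51 ± 0.23 in WT. Gpr82, an orphan receptor, changed by -0.23 ± 0.39 in KO and -2.35 ± 0.41 in WT, and Fam214a by -0.37 ± 0.33 in KO and -2.08 ± 0.34 in WT. All 3 of these differences were called (edgeR adjusted p 8.3e-04, 0.0096 and 0.011).

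Eps8 shows how near the border of the class a gene can lie. It encodes an adaptor protein that caps and bundles actin filaments. Eps8 had 10.1, 7.24, 7.93 and 8.8 CPM with LPA and 16.7, 10.4, 13.4 and 15.5 CPM untreated in KO, and the 2 groups did not overlap. The WT levels were 1.44, 1.13, 2.92 and 1.52 CPM with LPA and 8.92, 10.7, 13.5 and 9.87 CPM untreated, again without overlap. Such separation was found for 8.84% of genes in KO and 34.9% in WT. The KO effect was -0.72 ± 0.21 (adjusted p = 0.073) and the WT effect -2.63 ± 0.23, with a difference of 1.91 ± 0.30 (edgeR adjusted p = 1.9e-04). Without WT LPA replicate 3 the KO fall was called (adjusted p = 0.012), as it was without KO Cont replicate 2 (adjusted p = 0.039), so the gene then counted as retained but smaller. The KO fall was also called with the replicate block (adjusted p = 0.0013), with DESeq2 (0.041) and with thinned counts (0.031).

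In the reversed class, LPA moved the gene one way in KO and the other way in WT. Of its 49 genes, 32 fell in KO and rose in WT, and 17 rose in KO and fell in WT. Cd69, an early activation marker of leukocytes (chromosome 6, 129267324 to 129275375, GRCm38.p6), had 6.39, 7.46, 5.35 and 7.99 CPM with LPA and 10.02, 11.1, 13 and 16.5 CPM untreated in KO. In WT it had 29.2, 38.3, 26.4 and 32.6 CPM with LPA and 13.9, 14.9, 14.8 and 11.9 CPM untreated. Both pairs of groups were apart, in opposite directions. The effect was -0.90 ± 0.17 in KO (adjusted p = 0.0028) and 1.19 ± 0.14 in WT, a difference of -2.09 ± 0.21 (edgeR adjusted p = 4.9e-06).

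Cxcl10, an interferon-induced chemokine gene, had 87.1, 65.8, 44.7 and 70.9 CPM with LPA and 104, 136, 129 and 212 CPM untreated in KO. WT cultures had 415, 457, 262 and 340.0 CPM with LPA and 207, 217, 190.4 and 163 CPM untreated. Every treated KO culture was below every untreated one, and every treated WT culture above, with effects of -1.11 ± 0.21 in KO and 0.92 ± 0.21 in WT. Cd40, a co-stimulatory receptor of antigen-presenting cells, changed by -0.70 ± 0.15 in KO and 0.94 ± 0.14 in WT. Nfkbiz, a nuclear regulator of NF-kB named from the NF-kB list, changed by -0.57 ± 0.09 in KO (adjusted p = 5.9e-04) and 0.61 ± 0.09 in WT. Ikbke, a kinase of the NF-kB and interferon pathways from the same list, changed by -0.27 ± 0.07 in KO and 0.65 ± 0.07 in WT. Cd69, Cxcl10 and Cd40 stayed reversed without any one of the 16 libraries. Kdr, which encodes a receptor for VEGF, had effects of -0.72 ± 0.19 in KO and 1.12 ± 0.15 in WT, and it stayed reversed in 7 of these 16 omissions.

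Angptl4, an inhibitor of lipoprotein lipase, ran the opposite way. It had 34.1, 24.9, 28.3 and 25.6 CPM with LPA and 23.3, 13.6, 13.8 and 12.7 CPM untreated in KO, and 9.48, 5.11, 9.77 and 6.91 CPM with LPA and 11.8, 12.7, 12.6 and 11.4 CPM untreated in WT. The treated KO cultures were all above the untreated ones, and the treated WT cultures all below. Effects were 0.83 ± 0.19 in KO and -0.64 ± 0.19 in WT, and the KO call was lost without KO LPA replicate 1 (adjusted p = 0.062), KO Cont replicate 3 (0.059) or KO Cont replicate 4 (0.066). Itgb5, an integrin subunit, changed by 0.34 ± 0.08 in KO and -0.61 ± 0.08 in WT. Enc1 changed by 0.87 ± 0.18 in KO and -0.49 ± 0.18 in WT, and Ldhb, a lactate dehydrogenase subunit, by 0.75 ± 0.20 in KO and -0.63 ± 0.19 in WT. Under single-library omissions Itgb5 stayed reversed in 13 of 16, Enc1 in 11 and Ldhb in 2, although the difference itself was called in all 16 for each. The size of the class moved with the fit. It held 124 genes with the replicate number as a block within genotype and 93 with DESeq2. It held 28 without KO Cont replicate 4, 29 without KO LPA replicate 3, 86 without KO Cont replicate 1 and 112 without WT LPA replicate 3.

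**Figure D2:**
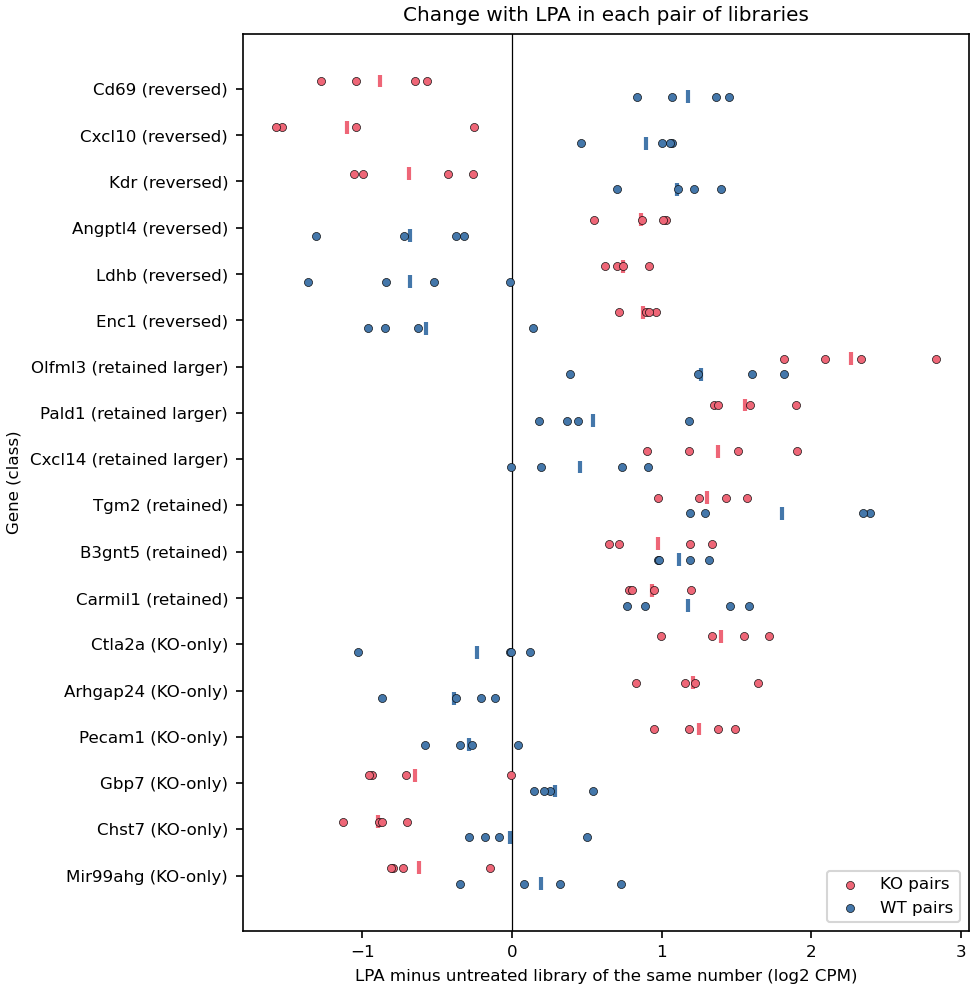
LPA minus untreated log2 CPM of the same replicate number in KO and in WT (points, 4 pairs each, mean as a bar) for 18 genes named for the reversed, retained larger, retained and KO-only classes. Cd69 and Cxcl10 lie left of 0 in the 4 KO pairs and right of 0 in the 4 WT pairs, while Tgm2, B3gnt5 and Carmil1 lie right of 0 in all 8.

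A small set of LPA effects was present in both genotypes. Of the 88 genes with no called difference, 60 rose and 28 fell, with a median absolute effect of 0.37 in log2 in KO and 0.34 in WT. Tgm2, which encodes transglutaminase 2, a protein cross-linking enzyme (chromosome 2, 158116405 to 158146392, GRCm38.p6), had 197, 99.3, 175 and 181 CPM with LPA and 73.1, 50.4, 58.9 and 76.1 CPM untreated in KO. The WT levels were 286, 302, 155 and 167 CPM with LPA and 54.4, 59.4, 68.1 and 68.3 CPM untreated. The treated cultures were above the untreated ones in both genotypes. The effects were 1.33 ± 0.21 in KO (adjusted p = 7.3e-04) and 1.86 ± 0.21 in WT. Their difference of -0.53 ± 0.29 had a 95% interval of -1.13 to 0.07, so a smaller KO effect was not excluded.

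Cgnl1, a junction-associated protein gene, gave the smallest difference among the 8 genes named for this class. It had 17.1, 15, 17 and 19.4 CPM with LPA and 8.95, 7.61, 7.77 and 10.8 CPM untreated in KO, and 21.2, 20.4, 16.7 and 14.6 CPM with LPA and 8.81, 8.93, 9.97 and 10.3 CPM untreated in WT. The groups were apart in both genotypes and lay over one another between them. Effects were 0.96 ± 0.12 in KO and 0.94 ± 0.11 in WT, and the difference lay within -0.32 to 0.35 (95% interval). B3gnt5, a glycosyltransferase of glycolipid synthesis, had 4.11, 2.26, 2.82 and 2.95 CPM with LPA and 1.6, 1.43, 1.7 and 1.27 CPM untreated in KO, and 3.53, 4.25, 4.03 and 3.81 CPM with LPA and 1.4, 1.85, 2.03 and 1.9 CPM untreated in WT. It rose in both, by 1.02 ± 0.17 in KO and 1.12 ± 0.14 in WT. Carmil1, a regulator of actin filament capping, rose by 0.92 ± 0.17 in KO and 1.19 ± 0.16 in WT, and Chst3, a chondroitin sulfotransferase, by 1.13 ± 0.16 in KO and 0.80 ± 0.15 in WT. These 5 rises kept their class without any one of the 16 libraries. The 95% interval of the Chst3 difference was -0.14 to 0.79.

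Retained falls included Hdac9, a histone deacetylase (-1.06 ± 0.23 in KO, -1.16 ± 0.22 in WT), and Tmod1, which caps actin filaments at their pointed ends (-0.69 ± 0.15 in KO, -0.79 ± 0.14 in WT). Hdac9 lost its KO call without KO Cont replicate 4 (adjusted p = 0.057) and Tmod1 without KO LPA replicate 3 (0.051). Il10, the anti-inflammatory cytokine gene, had 4.46, 3.79, 3.21 and 4.76 CPM with LPA and 5.08, 8.03, 6.39 and 10.1 CPM untreated in KO, and 7.02, 6.29, 6.07 and 8.53 CPM with LPA and 9.14, 9.77, 8.78 and 9.4 CPM untreated in WT. It was lower with LPA in both genotypes without overlap, with effects of -0.87 ± 0.19 in KO and -0.41 ± 0.16 in WT, and it kept this class in 5 of the 16 single-library omissions. The class held 151 genes with the replicate block, 55 without KO Cont replicate 3 and 55 without KO LPA replicate 3.

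Where both effects were called with the same sign, a difference was called in 16 genes with the smaller and 6 with the larger effect in KO. Olfml3, the gene of a secreted glycoprotein of the olfactomedin family (chromosome 3, 103735394 to 103738001, GRCm38.p6), had 18.4, 23.9, 23.5 and 21.6 CPM with LPA and 4.28, 6.77, 3.27 and 4.26 CPM untreated in KO. In WT it had 17.2, 15.8, 17.8 and 15.4 CPM with LPA and 7.24, 5.2, 5.02 and 11.7 CPM untreated. It rose in both, by 2.24 ± 0.23 in KO and 1.19 ± 0.21 in WT, and the difference of 1.06 ± 0.31 was called (edgeR adjusted p = 0.015), also without any one library. Pald1 rose by 1.57 ± 0.20 in KO and 0.53 ± 0.19 in WT, Cxcl14, a chemokine gene, by 1.39 ± 0.19 in KO and 0.46 ± 0.18 in WT, and Fmnl3, an actin-nucleating formin, by 0.74 ± 0.08 in KO and 0.21 ± 0.08 in WT. The WT call of these 3 was weak (adjusted p 0.027, 0.039 and 0.037). It was lost in 5, 6 and 3 of the 16 single-library omissions and with library totals, which would place them in the KO-only class. With the smaller KO effect, Slc16a3, the lactate and pyruvate exporter MCT4, rose by 0.83 ± 0.21 in KO and 1.78 ± 0.20 in WT. Gclm, a subunit of the enzyme that starts glutathione synthesis, rose by 0.48 ± 0.13 in KO and 1.09 ± 0.13 in WT. Tmem8 fell by 0.29 ± 0.08 in KO and by 0.89 ± 0.07 in WT on the log2 scale. The Notch ligand gene Jag1 rose by 0.85 ± 0.19 in KO and 1.55 ± 0.18 in WT. Slc16a3, Gclm, Tmem8 and Jag1 kept this class in 9, 6, 10 and 3 of the 16 omissions, and the difference of Jag1 (-0.70 ± 0.26, adjusted p = 0.046) was not called with the replicate block (adjusted p = 0.053). The 16 genes of this class became 48 with the block, 27 with DESeq2 and 10 with depth made equal.

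KO-only effects were led on the rising side by Ctla2a, a gene of a cysteine protease inhibitor (chromosome 13, 60934155 to 60936625, GRCm38.p6). Ctla2a had 5.94, 3.9, 4.18 and 4.61 CPM with LPA and 2.0, 1.16, 2.08 and 1.8 CPM untreated in KO, against 1.75, 1.84, 2.36 and 1.37 CPM with LPA and 1.77, 1.85, 2.18 and 2.83 CPM untreated in WT. The treated KO cultures were above all other libraries, and the WT groups overlapped. The KO effect was 1.39 ± 0.23 (adjusted p = 8.9e-04), the WT effect -0.23 ± 0.22, and the difference 1.63 ± 0.32 (edgeR adjusted p = 1.0e-03). Arhgap24, a GTPase-activating protein, had 5.0, 6.67, 5.11 and 6.94 CPM with LPA and 2.81, 2.11, 2.27 and 2.95 CPM untreated in KO, against 2.44, 2.29, 2.84 and 2.06 CPM with LPA and 2.81, 2.47, 3.69 and 3.81 CPM untreated in WT. Its KO effect was 1.22 ± 0.18, and the WT fall of -0.40 ± 0.17 lay just outside the threshold (adjusted p = 0.051). With the block and in 4 of 16 single-library omissions that fall was called, so the gene then counted as reversed.

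Pecam1, an adhesion molecule of endothelium and leukocytes, had 24.2, 7.29, 15.2 and 19.8 CPM with LPA and 9.27, 3.75, 5.4 and 8.69 CPM untreated in KO, against 4.21, 4.15, 8.79 and 5.62 CPM with LPA and 5.08, 6.22, 8.54 and 7.17 CPM untreated in WT. Replicate 2 was the lowest KO culture in both treatments, and it was higher with LPA as the other 3 pairs were. The KO effect was 1.29 ± 0.31 and the WT effect -0.25 ± 0.31. Thbs1, which encodes the matrix protein thrombospondin 1, was a high transcript of the same shape, with 1604, 502, 1042 and 1224 CPM with LPA and 541, 149.8, 239 and 436 CPM untreated in KO. WT cultures had 339.6, 383, 566 and 226 CPM with LPA and 198, 311, 439 and 349.9 CPM untreated. Its difference of 1.45 ± 0.51 (adjusted p = 0.04) was called in 5 of the 16 single-library omissions, and that of Pecam1 (1.54 ± 0.44) in all 16, though its KO call was lost in 5.

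Herpud1 was the firmest KO-only fall. It encodes a protein of endoplasmic reticulum-associated degradation (chromosome 8, 94386429 to 94395371, GRCm38.p6). Herpud1 had 38.7, 42.6, 37.4 and 40.3 CPM with LPA and 65.2, 57.7, 67.9 and 63.5 CPM untreated in KO, against 66.5, 72.1, 61.8 and 67.1 CPM with LPA and 62.5, 62.6, 67.7 and 52.3 CPM untreated in WT. The treated KO cultures were below every other library. The KO effect was -0.68 ± 0.08 (adjusted p = 2.6e-05), the WT effect 0.13 ± 0.08 and the difference -0.80 ± 0.11 (edgeR adjusted p = 3.7e-05). Chst7, a sulfotransferase, changed by -0.91 ± 0.14 in KO and -0.02 ± 0.12 in WT, and Herpud1, Chst7 and Ctla2a kept the class without any one library. Gbp7, an interferon-induced guanylate-binding protein, changed by -0.65 ± 0.14 in KO and 0.28 ± 0.14 in WT, and the RNA Mir99ahg by -0.63 ± 0.15 in KO and 0.21 ± 0.13 in WT. They kept the class in 13 and 10 omissions. The class itself fell to 57 genes without KO LPA replicate 3, 67 without KO Cont replicate 3, 67 without KO LPA replicate 4 and 69 without KO Cont replicate 4. The count of KO LPA effects moved with the same cultures, to 168 without KO LPA replicate 3, 184 without KO Cont replicate 4 and 190 without KO Cont replicate 3. It was 554 with the replicate block and 462 with DESeq2.

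A further 249 genes were called in the difference and in neither genotype alone. Nod1, a sensor of bacterial peptidoglycan, had 41.1, 22.2, 28.9 and 34.8 CPM with LPA and 43.1, 35.7, 43 and 58.4 CPM untreated in KO, against 63, 64, 55 and 61.1 CPM with LPA and 46.6, 54, 51.3 and 45.1 CPM untreated in WT. Its effects were -0.50 ± 0.14 in KO and 0.30 ± 0.13 in WT, with a difference of -0.81 ± 0.19 (edgeR adjusted p = 0.0046). Tex2 had effects of 0.25 ± 0.07 in KO and -0.18 ± 0.07 in WT, and Uhrf2, a ubiquitin ligase, of 0.18 ± 0.05 in KO and -0.13 ± 0.05 in WT. With the replicate block Nod1 and Tex2 were called in both genotypes and counted as reversed (Nod1 adjusted p 0.035 in KO and 0.043 in WT, Tex2 0.0011 in KO and 0.0011 in WT). The changes of the 4 KO pairs and the 4 WT pairs did not overlap in any of the 3 genes, as was the case for 38% of all genes. Depth made equal left 163 genes in this class, and 149 were left without KO Cont replicate 2.

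The gene lists are read against the calls over all genes, which were 15.8% lower and 12.7% higher in KO. For the LPA effect within a genotype, 1.56% of all genes were raised and 1.06% lowered in KO. In WT 23.5% were raised and 21.1% lowered. Over all 11590 genes the median LPA effect was -0.01 in log2 in both KO and WT, and the median difference 0.01. Of 20 measured NF-kB target genes, 17 had a lower LPA effect in KO. LPA lowered 3 in KO and raised 18 in WT. The list's median effect was -0.13 in KO and 0.63 in WT. Sod2, a mitochondrial superoxide dismutase, averaged 158 ± 19 CPM with LPA and 168 ± 27 CPM untreated in KO, and 469 ± 92.5 CPM with LPA and 160.2 ± 9.21 CPM untreated in WT (SD, n = 4 each). Its difference of -1.64 ± 0.17 was among the firmest (edgeR adjusted p = 4.9e-06).

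Of 29 interferon-stimulated genes, 27 had a lower LPA effect in KO, and LPA raised 26 in WT. In KO edgeR called 0 of the 29, with 14 below an unadjusted p of 0.05, all lower with LPA, and DESeq2 called 6. The median was -0.29 in KO and 0.67 in WT. Ifit1, an antiviral RNA-binding protein, had 131, 141, 92.6 and 119 CPM with LPA and 118, 227, 149.8 and 211 CPM untreated in KO, against 477, 535, 377 and 440.0 CPM with LPA and 267, 238, 219 and 226 CPM untreated in WT. Untreated KO culture 1 lay among the treated KO cultures and the other 3 untreated ones above them. The treated WT cultures were above all others, and the treated KO cultures below every WT one. The difference was -1.49 ± 0.23 (edgeR adjusted p = 1.4e-04). The RNA sensors Ifih1 (-1.06 ± 0.16) and Ddx58 (-0.91 ± 0.15) differed in the same direction. With library totals, 23 of the 29 were called lower.

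Of 21 chemokine genes, 10 had a lower and 1 a higher LPA effect in KO, with medians of -0.16 in KO and 0.87 in WT. LPA raised 2 and lowered 1 in KO, and raised 16 in WT. Ccl4, a chemokine for monocytes and T cells, had 14, 11.9, 11.4 and 16.7 CPM with LPA and 20.8, 21.1, 17.6 and 30.9 CPM untreated in KO, against 52.8, 65.5, 28.2 and 39.6 CPM with LPA and 23.2, 24.8, 23.4 and 20.9 CPM untreated in WT. The KO groups were apart with the treated ones lower, yet this KO effect was not called (-0.75 ± 0.23, adjusted p = 0.091), and the difference was -1.76 ± 0.30. Ccl3, its neighbour on chromosome 11, differed by -1.17 ± 0.22. Of 17 cytokine genes, 6 had a lower LPA effect in KO, among them Csf1, the macrophage growth factor gene (-1.16 ± 0.22), and Tnfsf9, a TNF family ligand (-1.51 ± 0.31). Il1b was not among them (KO 0.28 ± 0.27, WT 1.05 ± 0.26, difference -0.77 ± 0.38), nor was Il6 (KO -0.08 ± 0.70, WT 0.59 ± 0.46).

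**Figure D3:**
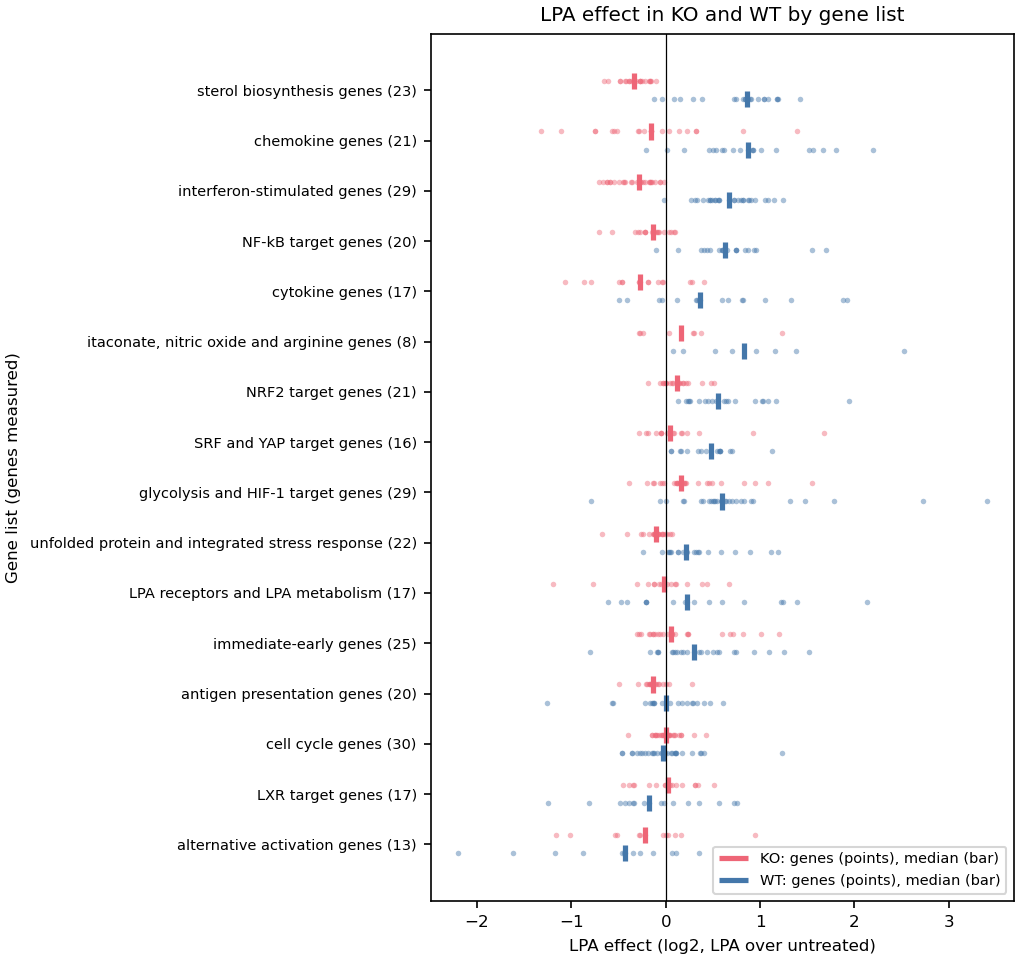
LPA effect (log2, LPA over untreated) in KO and in WT for the members of 16 pathway lists (points) with the median of each list as a bar and the number of genes measured in brackets. The KO medians lie within 0.33 of 0, while the WT medians run from -0.43 for alternative activation genes to 0.87 for sterol biosynthesis and chemokine genes.

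The rises in lipid and redox metabolism followed the same split. Of 23 sterol biosynthesis genes, 17 had a lower LPA effect in KO, and LPA raised 18 in WT. In KO edgeR and DESeq2 called 0 of the 23, with 4 below an unadjusted p of 0.05. The list had medians of -0.33 in KO and 0.87 in WT. Fdps, an enzyme of isoprenoid synthesis, had 12.8, 16.2, 14.9 and 17.6 CPM with LPA and 16.3, 29.4, 24.1 and 24.9 CPM untreated in KO, against 68.4, 56.7, 26 and 39 CPM with LPA and 26.4, 22.3, 19.7 and 23.9 CPM untreated in WT. Treated WT replicate 3 lay just below the highest untreated WT culture and the other 3 above it, and the KO groups overlapped. The Fdps difference was -1.66 ± 0.33 (edgeR adjusted p = 0.0013), and that of Insig1, a sterol sensor of the endoplasmic reticulum, was -1.18 ± 0.23. Among 21 NRF2 target genes, 14 were lower in KO, with medians of 0.12 in KO and 0.55 in WT. LPA raised 1 of them in KO and 20 in WT. They include Txnrd1, thioredoxin reductase 1 (0.24 ± 0.12 in KO, 1.03 ± 0.12 in WT), and Pgd, an enzyme of the pentose phosphate pathway (0.18 ± 0.06 in KO, 0.66 ± 0.06 in WT). With library totals the NRF2 count was 10.

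Glycolysis and HIF-1 target genes include members called in both genotypes. Of 29 measured, 16 had a lower and 1 a higher LPA effect in KO, and LPA raised 4 and lowered 1 in KO against 24 raised and 1 lowered in WT. The medians were 0.17 in KO and 0.60 in WT. Hk2, a hexokinase, rose in both (0.43 ± 0.08 in KO, 0.80 ± 0.08 in WT), as did Slc16a3 and Egln3, a prolyl hydroxylase of the hypoxia response (1.56 ± 0.40 in KO, 2.72 ± 0.29 in WT). Ndrg1 fell in both, with effects of -0.39 ± 0.09 in KO and -0.79 ± 0.09 in WT. Vegfa, the vascular growth factor gene, was called in KO (1.08 ± 0.20) and not in WT (0.37 ± 0.20), without a called difference (0.71 ± 0.28). Pgk1 (0.15 ± 0.10 in KO, 0.83 ± 0.09 in WT) and Pfkfb3 (-0.04 ± 0.08 in KO, 0.63 ± 0.07 in WT), which act in glycolysis, had called differences.

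Immediate-early genes and the actin-linked targets of SRF and YAP were mixed. Of 25 immediate-early genes, 4 had a lower LPA effect in KO, beside 15.8% of all genes. Fos, a subunit of AP-1, rose by 0.71 ± 0.11 in KO and 0.75 ± 0.10 in WT, with a difference of -0.04 ± 0.15. Nr4a2, a nuclear receptor, was called in KO (1.20 ± 0.29) and not in WT (0.43 ± 0.27), without a called difference. The MAP kinase phosphatase genes Dusp1 (-0.97 ± 0.23), Dusp2 (-1.37 ± 0.24) and Dusp4 (-1.28 ± 0.37) differed, as did Myc (-0.81 ± 0.28). Of 16 SRF and YAP target genes, 8 had a lower and 1 a higher LPA effect in KO, with medians of 0.04 in KO and 0.49 in WT. Tpm4, a tropomyosin, averaged 224 ± 3.88 CPM with LPA and 210.1 ± 9.72 CPM untreated in KO, and 435 ± 81.3 CPM with LPA and 199 ± 10.4 CPM untreated in WT (SD, n = 4 each), a difference of -1.04 ± 0.13. Vcl, the adhesion protein vinculin, differed by -0.76 ± 0.13, while Myh9, a non-muscle myosin heavy chain, rose in both (0.35 ± 0.06 in KO, 0.43 ± 0.06 in WT).

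Among LPA receptors and LPA-handling enzymes, 8 of 17 had a lower and 2 a higher LPA effect in KO, and LPA raised 10 and lowered 2 in WT. In KO edgeR called 0 of the 17, with 4 below an unadjusted p of 0.05, and DESeq2 called 1. Lpar1, an LPA receptor, had 3.07, 2.21, 2.24 and 3.38 CPM with LPA and 4.05, 3.91, 5.87 and 4.8 CPM untreated in KO, against 10.8, 13.1, 5.84 and 8.98 CPM with LPA and 3.88, 5.22, 4.01 and 3.36 CPM untreated in WT. The treated cultures lay below the untreated ones in KO and above them in WT, and the difference was -2.00 ± 0.30 (edgeR adjusted p = 1.2e-04). Lpar6, another LPA receptor, went the other way (0.43 ± 0.16 in KO, -0.47 ± 0.15 in WT, difference 0.91 ± 0.22). Agpat4, an acyltransferase that uses LPA as a substrate, differed by -1.13 ± 0.24. Gng12 (-0.56 ± 0.08) and Gng2 (0.54 ± 0.11), both G protein gamma subunits, differed in opposite directions, and Pde4b, a cAMP phosphodiesterase, by -0.67 ± 0.14.

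Genes of other macrophage programmes followed. Of 13 alternative activation genes, 3 had a higher LPA effect in KO, and LPA lowered 1 in KO and 7 in WT, with medians of -0.22 in KO and -0.43 in WT. Mrc1, the mannose receptor, had 814, 731, 767 and 757 CPM with LPA and 1198, 999, 1152 and 1092 CPM untreated in KO, against 551, 569, 663 and 591 CPM with LPA and 1028, 1175, 1205 and 963 CPM untreated in WT. It was lower with LPA in both genotypes without overlap, with effects of -0.53 ± 0.08 in KO and -0.88 ± 0.08 in WT. The smaller fall in KO was called (difference 0.35 ± 0.12, edgeR adjusted p = 0.031). That call was lost without KO Cont replicate 2 or 4, or KO LPA replicate 1. It was also lost without WT Cont replicate 2 or 3, or WT LPA replicate 1 or 2. Of 17 LXR target genes, 2 were lower and 7 higher in KO, among them Arl4c, a small GTPase gene that was higher (0.82 ± 0.14). Of 22 unfolded protein and integrated stress response genes, 8 were lower, including the transcription factor gene Atf4 (-0.71 ± 0.17) and Ppp1r15a, a phosphatase subunit of that response (-0.60 ± 0.14). Of 20 antigen presentation genes 5 were lower and 1 higher, among them the peptide transporter gene Tap2 (-0.53 ± 0.16). With library totals the median difference of this list changed sign, to 0.05 against -0.02 with TMM scaling. Of 8 itaconate, nitric oxide and arginine genes 3 were lower, including Gch1 (-1.20 ± 0.21), and of 30 cell cycle genes 2 were lower and 2 higher.

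Marker genes were followed beside these results. Summed over 20 macrophage markers, levels ran from 61320 to 63528 CPM in KO LPA, 63535 to 66476 in KO Cont, 62860 to 67213 in WT LPA and 66220 to 68712 CPM in WT Cont, with 3 members lower and 4 higher in the KO difference. The higher ones included Mertk, a receptor for apoptotic cells (0.65 ± 0.13), Fcgr3, an Fc receptor (0.83 ± 0.19), and the lineage factor gene Cebpa (0.93 ± 0.16). Of 13 measured neutrophil markers 0 had a called difference by edgeR or DESeq2, and 0 had an unadjusted p below 0.05. Their sum ran from 229 to 464 CPM in KO LPA, 299.6 to 603 in KO Cont, 251 to 301 in WT LPA and 294 to 536 in WT Cont. Among 7 of 13 stromal and endothelial markers that were measured, Pecam1 and Kdr had called differences. That sum ran from 20.4 to 34.9 CPM in KO LPA, 14.4 to 26.6 in KO Cont, 36.0 to 43.8 in WT LPA and 21.4 to 28.3 in WT Cont. Part of these 7 are genes of the KO-only and reversed classes, and the part of such cells in the results was not tested. Of 12 dendritic cell markers 4 were measured and Irf8 differed, and of 14 T, NK and B cell markers 2 were measured. By edgeR and DESeq2 0 of these 2 differed, and 1 had an unadjusted p below 0.05. Of 10 osteoclast markers 7 were measured and 3 differed. The mast cell list had Hdc alone of 8 (-1.24 ± 0.28), and the erythroid and megakaryocyte list Pf4, which differed (-0.78 ± 0.15), and Ppbp, of 11. In bulk RNA, fewer cells of a type and less RNA per cell cannot be told apart.

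The classes were also read in cultures that had not formed them. The replicate numbers paired the cultures within a genotype, and each number was left out in turn, the classes were called on the other 3 numbers, and the change with LPA was then read in the left-out pair. For genes classed as lost, the left-out KO pairs had a median change along the WT direction of 0.02, -0.14, -0.07 and -0.08 in log2 CPM for numbers 1 to 4. The left-out WT pairs had 0.49, 0.66, 0.24 and 0.48. In WT 92.75% to 100% of these genes kept their direction, and in KO 18.4% to 57.4% took it. Genes called in WT without a called difference had medians of 0.07, -0.02, 0.03 and 0.01 in the left-out KO pairs. Their left-out WT pairs had 0.36, 0.47, 0.16 and 0.29, and 45.6% to 71.5% of them took the WT direction in KO. A KO median near 0 beside a WT change was thus not particular to the lost class. Reversed genes had medians of -0.19, -0.46, -0.55 and -0.66 in the left-out KO pairs and 0.32, 0.38, 0.23 and 0.84 in the left-out WT pairs, over 50, 14, 21 and 5 genes. Retained genes without a called difference had 0.47, 0.36, 0.61 and 0.63 in KO and 0.58, 0.61, 0.49 and 0.27 in WT. KO-only genes, along their KO direction, had 0.35, 0.44, 0.58 and 0.49 in KO and 0.05, -0.11, 0.12 and -0.23 in WT. By these medians, every KO pair stood on the opposite side of 0 from its WT pair for reversed genes. Every KO pair stood on the same side as its WT pair for retained genes without a called difference. Of single reversed genes, 0% to 28% took the WT direction in the left-out KO pairs, and 71.4% to 100% kept it in WT. Of single KO-only genes, 89.9% to 100% kept the KO direction in KO, and 2.63% to 77.5% took it in WT. Of retained genes with a larger KO effect, 2, 1 and 3 could be read for numbers 2, 3 and 4, with 1.36, 2.83 and 0.74 in KO and 0.80, 1.82 and -0.05 in WT.

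**Figure D4:**
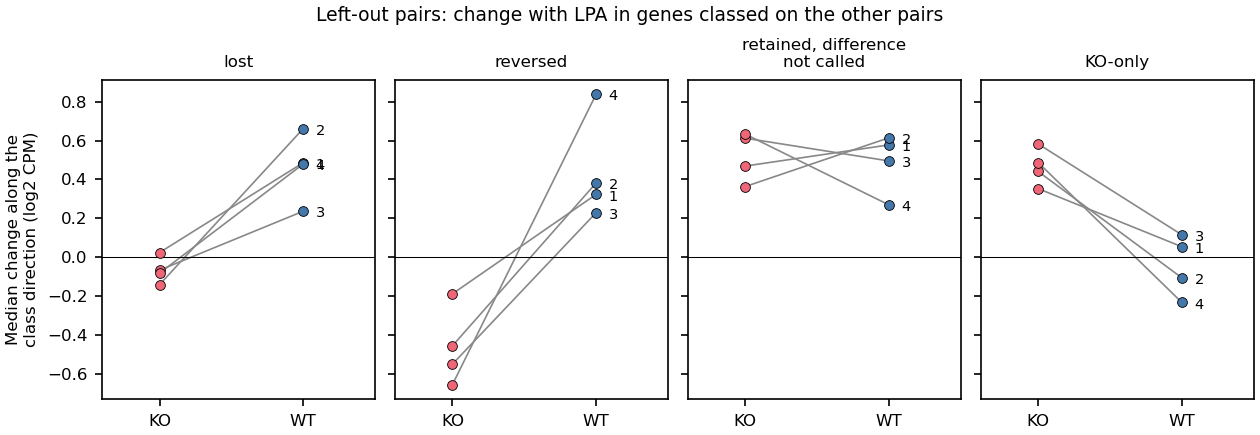
Median change with LPA (log2 CPM, along the direction of the class) in the replicate pair that was left out when the classes were called, in KO and in WT, with a line joining the same replicate number. For lost genes the WT pairs lie between 0.24 and 0.66 and the KO pairs between -0.14 and 0.02, and for reversed genes the KO pairs lie below 0 and the WT pairs above it.

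The genes named for a class were also read with LPS. LPS values use the same untreated libraries and are therefore given side by side only. For the 8 named lost rises, the LPS effect lay between 4.52 and 6.47 in KO and between 4.56 and 6.41 in WT, all called as rises, where LPS effects were called for 82.3% of all genes in KO and 84.2% in WT. For the 6 named lost falls it lay between -6.70 and -3.85 in KO and between -6.78 and -3.72 in WT, all called as falls. Acod1, for example, changed by 6.47 ± 0.27 in KO and 6.41 ± 0.26 in WT with LPS, and Tnf by 5.65 ± 0.26 in KO and 5.66 ± 0.26 in WT. Compared directly with LPS present, which shares no library with the LPA difference, KO and WT differed in 330 of 11590 genes (2.85%). For these 14 genes that comparison gave edgeR adjusted p values between 0.43 and 0.96. Its KO minus WT log2 values lay between -0.17 and 0.48 for the 8 rises and between -0.76 and 0.52 for the 6 falls. A missing call does not show equal levels. Gpr35 itself had 11, 8, 17 and 10 counts in the WT LPS libraries, against 107, 133, 112 and 111 counts in untreated WT. The 8 reversed genes moved with LPS in one direction in both genotypes, such as Cd69 (5.25 ± 0.16 in KO, 5.26 ± 0.15 in WT) and Angptl4 (-7.39 ± 0.42 in KO, -7.70 ± 0.39 in WT). The 4 KO-only rises fell with LPS in both, and the 4 KO-only falls rose. Retained genes had LPS effects of either sign, for example Tgm2 (2.48 ± 0.22 in KO, 2.51 ± 0.21 in WT) and Cgnl1 (-1.59 ± 0.14 in KO, -2.06 ± 0.13 in WT).

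The count of differences moved with single cultures and with depth. Leaving out 1 KO library gave 2607 (KO Cont replicate 2) to 3470 (KO Cont replicate 1) genes that differed. Without WT LPA replicate 2 there were 2259 genes that differed and 1891 that were lost. Without WT LPA replicate 3, whose pair gave the smallest left-out WT median for lost genes, 4632 differed and 4075 were lost. With all libraries thinned to the smallest total of 15167683 counts, 2438 genes differed, of which 2306 were among the 3301.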

How the data were processed

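Poly(A) RNA of the 24 cultures was made into stranded paired-end libraries read at 51 bases, per the labels' protocols, and aligned with STAR 2.5.2a to mm10, per the submitters' processing notes. How reads were counted, with which annotation and with what regard to strand is not given in the sources used here, so reads shared by near-identical or overlapping genes depend on choices that are not known. The deposited file holds whole-number counts per gene for 11590 genes, 9 without a symbol, not normalised by the authors as far as the values show. All 24 columns were matched to samples by their names. The 24 pairs of replicates within the 4 compared groups gave chi-square values, divided by their degrees of freedom, between 4.11 and 77.4, and none was a copy of another.

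Counts were fitted with edgeR 4.0.16 in R 4.3.3 (TMM, robust quasi-likelihood F test), with one mean for each of 6 groups over 24 libraries and 18 residual degrees of freedom. TMM factors lay between 0.739 and 1.18. Contrasts were the LPA effect in KO, in WT and their difference (KO minus WT), with calls where the p adjusted over all genes by Benjamini-Hochberg was under 0.05. A filter on low counts removed 0 genes. CPM values are counts per 1000000 of the TMM-scaled library. Errors of log2 values are SE, and those of CPM are SD over 4 libraries. Total counts limit the precision of low genes, and the KO libraries were shallower. Alternatives were DESeq2 1.42.0, median-ratio factors, library totals, other filters and thresholds, the 16 libraries alone, thinned counts, a replicate block and leaving out libraries. The procedure was run on simulated counts, which had a single baseline for both genotypes and no pairing of cultures. That run checked the code and does not give error rates for these data.

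Same-numbered LPA and untreated cultures deviated together from their group means (r 0.34, 0.75, 0.27 and 0.51 in KO, 0.50, 0.22, 0.62 and 0.22 in WT), each over 0.1, so the labels' replicate numbers were taken to pair the cultures within a genotype. KO 1 and WT 4 correlated more with another number (0.44 and 0.32). The main fit and its classes did not use this pairing. With the replicate block, 3736 genes were lost against 2873 in the main fit, and 554 KO effects were called against 304.

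Genes were named by rule. Among genes that had an official symbol and averaged 2 CPM or more over the 16 libraries it took those with the largest difference in each class (8 lost rises, 6 lost falls, 4 each way in the reversed and KO-only classes, 4 each for the retained smaller and larger ones), and the 5 rises and 3 falls with the largest mean effect of those retained without a called difference. It further took the 3 smallest p in the difference alone and in each of 25 gene lists, and Gpr35 and Tnf. Other list members named were chosen after their values were seen. Some named genes and 1 list are not reported here. The rule, the classes and the lists, which were written from general knowledge, were chosen with earlier results of these data known. Promoters came from the RefSeq table of GRCm38.p6, in which Tgm2 and Carmil1 had no entry.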

Additional observations from a re-analysis of the deposited data

Results flagged for a closer look

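The comparison of the genotypes is itself the first result a reader may want to look at again: the LPA effect differed between KO and WT in 3301 genes by the test of the difference.

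Among 460 groups of 4 libraries, 4 for each of the 115 named genes, 16 held a library far from the other 3, and chance flags about 1 group in 20. In KO with LPA, replicate 1 stood apart for Dusp2 (5.84 CPM, next 4.81), Me1 (2.77, next 4.69), Psmb10 (115.8, next 105.0), Tnfsf9 (1.54, next 2.34) and Cxcl14 (9.11, next 6.85). Replicate 2 stood apart for Hdc (0.905, next 1.49), replicate 3 for Itgb5 (249.6, next 265.0) and Bst2 (178.8, next 195.0), and replicate 4 for Pgk1 (71.7, next 62.4). In untreated KO, replicate 4 stood apart for Kdr (14.6, next 8.95), replicate 2 for Retnlg (1.16, next 3.03) and replicate 1 for Angptl4 (23.3, next 13.8). In WT with LPA, replicate 3 stood apart for Batf3 (2.36, next 1.76). In untreated WT, replicate 3 stood apart for Fmnl3 (37.5, next 44.4) and replicate 4 for Txnrd1 (246.7, next 225.0) and Chst7 (3.36, next 4.32).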

How the results depend on the processing

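The count of genes whose LPA effect differed between KO and WT was 3585 with DESeq2, 3313 with median-ratio factors, 3306 with library totals, 3322 with a stricter filter, 3137 in the 16 libraries alone, 2438 with thinned counts and 4328 with the replicate block within genotype. It was 1573 at an adjusted p below 0.01 and 4388 below 0.1. At 0.01 there were 130 KO effects and 3390 WT effects, with 1383 genes lost, 15 reversed, 2 retained smaller, 0 retained larger, 35 retained without a called difference, 51 KO-only and 122 in the difference alone. At 0.1 there were 108 reversed, 26 retained smaller and 14 retained larger. DESeq2 gave 462 KO effects, 93 reversed, 27 retained smaller and 71 KO-called without a difference. Thinned counts gave 10 retained smaller and 163 in the difference alone. The replicate block gave 554 KO effects, 124 reversed, 48 retained smaller, 151 retained without a called difference and 60 KO-called without one, and among the 115 named genes it ended the called difference of Jag1 and gave one to Cd4, while the other differences kept their side of the threshold. Among the genes named for a class, calls within a genotype made Eps8 retained but smaller and Arhgap24, Nod1 and Tex2 reversed.

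Leaving out 1 library or 1 replicate number gave 1262 to 4632 genes that differed, 98 to 409 KO effects and 3223 to 6083 WT effects. The classes ran from 1088 to 4075 for lost, 5 to 112 for reversed, 2 to 31 for retained smaller, 0 to 7 for retained larger and 28 to 106 for retained without a called difference. They ran from 38 to 111 for KO-only, 11 to 63 for KO-called without a difference and 85 to 304 for the difference alone. The small counts with a whole number left out rest on 3 cultures a group.

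For the 115 named genes, 901 of 916 values under the other settings kept the direction and side of the threshold, 13 lost the call, 1 gained it and 1 reversed (Gpr35, -0.55 with thinned counts). In the leave-one-out fits 2122 of 2300 did, 143 lost the call, 8 gained it and 27 reversed. The reversed ones were all in genes without a called difference: Gpr35 (-0.35 to 0.41), B3gnt5 (-0.28 to 0.017), Hdac9 (-0.25 to 0.42), Cgnl1 (-0.096 to 0.14), Tmod1 (-0.020 to 0.18) and Batf3 (-0.034 to 0.44). The cause of these changes was not tested. A KO depth of 15.6 to 21.5 M counts limits what can be called lost among low genes.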
